A study of Mus musculus with 18 samples.

Results

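Double-positive (DP) immune cells of atherosclerotic mouse arteries were compared with GFP single-positive (GFP) cells, by the RNA sequencing libraries that the labels assign to each subset. The comparison takes 4 DP libraries, numbered 1, 2, 4 and 5 in the labels and called DP 1, DP 2, DP 4 and DP 5 here, and 6 GFP libraries, GFP 1 to GFP 6, out of 18 libraries in all. Aortas and carotids of C57BL/6 mice of both sexes were digested and live CD45-positive cells sorted, from animals 7 months old that had eaten a Western diet for 5 months and carried Apoe-/- Cx3cr1GFP Cd11cYFP alleles. GFP cells showed GFP alone and DP cells showed GFP and YFP, so that the subsets differ in the YFP gate while the Apoe deletion, the diet and both reporters were shared by all animals. The title of the series names migratory and dancing macrophages of lesions, and the comparison asks which transcripts set apart Cx3cr1 reporter cells that also show the Cd11c reporter. The labels do not state whether libraries came from separate or pooled mice, nor whether 1 or 2 Cx3cr1 alleles carried GFP, and p-values therefore measure only the spread between these libraries, which may be technical.

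Cx3cr1 encodes the receptor for the chemokine fractalkine, and a GFP knock-in at this locus marks monocytes and many tissue macrophages. Cd11c, the integrin subunit encoded by Itgax, marks dendritic cells and is also gained by macrophages that load lipid in the arterial wall, and the YFP reporter is a transgene driven by its promoter, so that YFP light and Itgax transcript need not follow each other cell by cell. Plaques hold monocytes that enter from blood, resident macrophages, dendritic cells, lymphocytes and granulocytes beside fibroblasts and smooth muscle cells, which lack CD45. In bulk libraries fewer cells of a type and less RNA per cell cannot be told apart.

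The libraries labelled DP did not hold the reporter-driving transcripts alike. Cx3cr1 (chromosome 9, 119901616 to 120069879, mm10) stood at 92.7, 118, 9.43 and 0.427 CPM (read counts scaled by library size with TMM factors) in DP 1, DP 2, DP 4 and DP 5, and at 80.9 to 165 CPM (median 142) in GFP. Itgax (chromosome 7, 128129547 to 128150657) stood at 456, 311, 38.6 and 47.8 CPM in the same order, and at 107 to 191 CPM (median 165) in GFP. DP 1 and DP 2 thus had Cx3cr1 within the GFP range and more Itgax than any GFP library. The libraries labelled DP 4 and DP 5 had less of both transcripts than any GFP library, although their labels name both reporters. The labels rest on reporter light and not on transcript, and whether they hold for these libraries was not tested. DP 4 and DP 5 stand throughout for the libraries so labelled. In edgeR's quasi-likelihood test neither gene differed between the subsets past the threshold, with log2 fold changes of -1.24 ± 0.99 (SE) and 0.48 ± 0.73 (SE) (adjusted p = 1.0 and 1.0). Ptprc, which encodes the CD45 used for the sort, stood at 833, 537, 543 and 534 CPM in DP 1, 2, 4 and 5, all within the GFP range of 461 to 1015 CPM (median 712). Csf1r, the growth factor receptor of macrophages, stood at 3219, 2322, 1121 and 1067 CPM against 2326 to 5148 CPM (median 3240.2), with DP 2, DP 4 and DP 5 under all GFP libraries. Apoe was listed at 17.8, 24.7, 15.6 and 1.81 CPM in DP against 22.1 to 57.0 CPM (median 34.4) in GFP. The labels do not say which part of Apoe was deleted, so these reads check nothing.

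**Figure D1:**
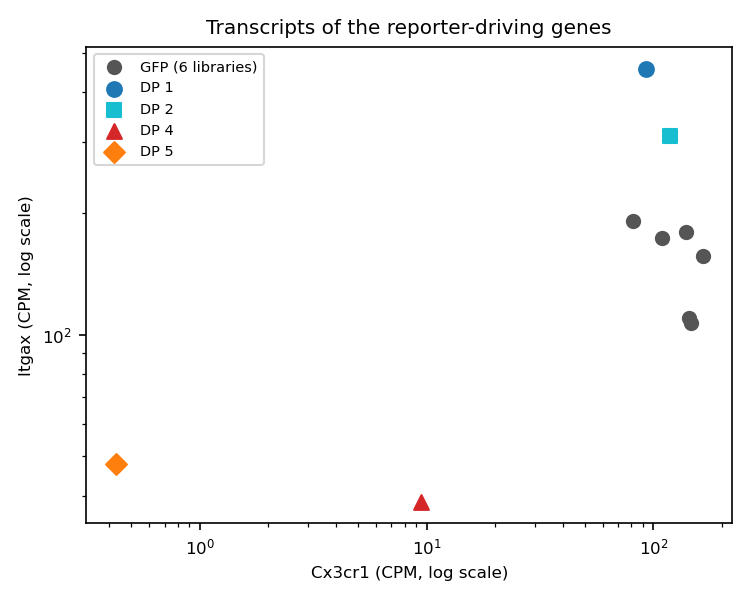
Each point is 1 library, with Cx3cr1 in CPM on the x axis and Itgax in CPM on the y axis, both on log scales. Grey points are the 6 GFP libraries and coloured symbols the 4 DP libraries. DP 1 and DP 2 lie above the GFP libraries in Itgax (456 and 311 CPM), and DP 4 and DP 5 lie to the lower left (9.43 and 0.427 CPM of Cx3cr1).

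Of 17143 tested genes, DP 1 held 2274 (13.3%) above and 2568 (15.0%) below all 6 GFP libraries, and DP 2 2691 (15.7%) and 1920 (11.2%). DP 4 held 3478 (20.3%) above and 2951 (17.2%) below, and DP 5 4437 (25.9%) and 6316 (36.8%). Any 1 library lies outside the range of 6 others in some genes by order alone. These shares were not set against that, so they do not count genes that differ. Total counts ran from 9790946 (DP 2) to 21674877 (GFP 6). Libraries numbered 1 or 2 had 19245 to 21448 genes with a count, and those numbered 3 to 6 had 14731 to 18961. The 10 most abundant genes took 7.40 to 15.2% of the counts of a library, with DP 5 the highest. Across tested genes, log2(CPM + 1) correlated at 0.914 to 0.980 between DP 1 or DP 2 and the GFP libraries, at 0.871 to 0.911 for DP 4 and at 0.679 to 0.752 for DP 5, where GFP libraries correlated with each other at 0.923 to 0.990. DP 1 and DP 2 were as close to each other (0.975) as GFP libraries were, and DP 4 and DP 5 correlated with each other at 0.701. These correlations are across genes, which are not independent replicates.

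**Figure D2:**
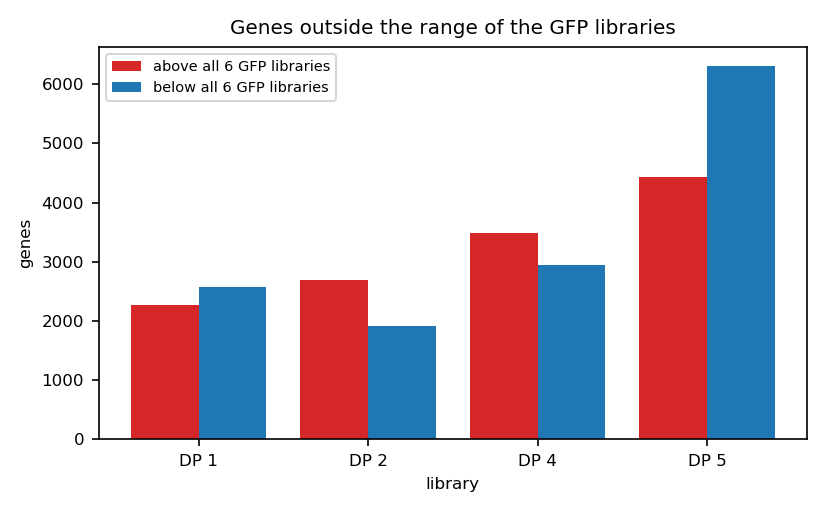
Bars give, for each DP library on the x axis, the number of tested genes (y axis) above all 6 GFP libraries (red) and below all 6 (blue). DP 5 has the most of both, 4437 and 6316, and DP 2 the fewest below, 1920.

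Pcolce, Mfap5, Dcn, Sparc and Mgp, genes of extracellular matrix, rose in DP, and in all of them but Dcn every DP library lay above GFP. In all, 34 genes were higher in DP than in GFP (0.198% of the genes tested) and 0 were lower (0.0%), by edgeR's quasi-likelihood test at a Benjamini-Hochberg adjusted p under 0.05. At an unadjusted p under 0.05 there were 1141 higher and 31 lower genes, and DESeq2 called 3 lower. Pcolce, which speeds the trimming of procollagen, stood at 61.8, 31.6, 317 and 431 CPM in DP 1, 2, 4 and 5 against 4.01 to 20.8 CPM (median 14.4) in GFP, a log2 fold change of 4.04 ± 0.69 (SE) with adjusted p = 0.0361. Mfap5, a microfibril protein (chromosome 6, 122505845 to 122529290), stood at 15.8, 10.4, 78.4 and 140.3 CPM against 2.21 to 6.61 CPM (median 3.95) and rose by 3.91 ± 0.72 (SE) on the log2 scale with adjusted p = 0.0361. In both genes all 4 DP libraries lay above all GFP libraries, DP 1 and DP 2 by a small and DP 4 and DP 5 by a large distance. Dcn, the proteoglycan decorin that binds collagen fibrils, stood at 404, 226, 3674 and 4439 CPM against 39.5 to 264 CPM (median 129), so that DP 2 lay within the GFP range. Its log2 fold change was 3.98 ± 0.74 (SE), with adjusted p = 0.0361.

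Sparc, a collagen-binding matrix protein (chromosome 11, 55394500 to 55423183), was the most even of the 12 genes with the smallest p across the 4 DP libraries, at 271, 179.9, 950.1 and 260.1 CPM against 29.6 to 67.3 CPM (median 52.3) in GFP, a log2 fold change of 2.98 ± 0.58 (SE) (edgeR adjusted p = 0.0365). DP 4 was its highest library, and the other 3 lay close together. Serping1, the C1 inhibitor of the complement cascade, stood at 333, 168, 1570.1 and 1379.6 CPM against 18.4 to 135 CPM (median 67.2) (log2 fold change 3.62). Clec11a, a secreted growth factor of bone and blood cells (chromosome 7, 44302687 to 44306902), stood at 25, 12.4, 83.6 and 253 CPM against 0.602 to 7.03 CPM (median 4.08) (log2 fold change 4.53). Igfbp7, a secreted binding protein of insulin-like growth factor, stood at 122, 98.5, 709 and 1335 CPM against 17.2 to 82.5 CPM (median 52.2) (log2 fold change 3.50). All 3 had every DP library above the GFP libraries. Wnt11, a secreted Wnt ligand, stood at 46.9, 39.9, 239 and 857 CPM against 7.07 to 39.5 CPM (median 16.0) (log2 fold change 3.82), and DP 2 exceeded the highest GFP library by less than 1 CPM. Ramp2, a partner of the adrenomedullin receptor of endothelium, stood at 3.24, 2.68, 31.1 and 110.4 CPM against 0.702 to 1.98 CPM (median 1.26) (log2 fold change 4.84). Hspb8, a small heat shock protein, stood at 3.41, 3.99, 62.3 and 255 CPM against 0.614 to 4.42 CPM (median 2.23) (log2 fold change 5.13), with DP 1 and DP 2 inside the GFP range. The adjusted p of these 6 genes was 0.0361 in edgeR.

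Some of the 34 genes rested on 1 library. Apod, a lipid-binding apolipoprotein, stood at 7.15, 5.29, 26.7 and 1022 CPM in DP 1, 2, 4 and 5 against 0.903 to 6.08 CPM (median 2.91) in GFP (log2 fold change 6.35). Il4, the cytokine of type 2 immunity, stood at 0.0832, 0.732, 12.1 and 294 CPM against 0.106 to 0.599 CPM (median 0.195) (log2 fold change 8.27). Igfbp3, another binding protein of insulin-like growth factor, stood at 1.66, 0.895, 198 and 0.747 CPM against 0 to 1.74 CPM (median 0.297) (log2 fold change 6.63). DP 5 thus held nearly all of Apod and Il4, and DP 4 all of the rise of Igfbp3.

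The 34 genes were chosen by the test on these same libraries, so counts of DP libraries above GFP among them are no separate support. Of all tested genes, 20.3% lay above all GFP libraries in DP 4, 25.9% in DP 5, 15.7% in DP 2 and 13.3% in DP 1. All 4 did so in 0.548%. Over the 34 genes, DP 4 lay above all GFP libraries in 34, DP 5 in 33, DP 2 in 22 and DP 1 in 21, and the 4 DP libraries all did so in 17. Beside Pcolce, Mfap5, Sparc, Serping1, Clec11a, Igfbp7, Wnt11 and Ramp2 these 17 were Ly6c1, Entpd2, Hoxa2, Fbln7, Paqr6, Fam180a, Ppic, Mgp and Fstl1. Entpd2, an enzyme that degrades extracellular ATP, stood at 33.9, 16.9, 97.1 and 64.1 CPM against 4.06 to 12.0 CPM (median 5.30). Mgp, a matrix protein that holds back calcification, stood at 92.2, 124, 802 and 1197 CPM against 19.9 to 85.2 CPM (median 63.2). Every DP library was above GFP for both, Mgp in DP 1 by a narrow margin. Ly6c1 stood at 15.6, 12.4, 72.7 and 142 CPM against 3.0 to 6.10 CPM (median 4.58), and its near-identical neighbour Ly6c2 makes its counts uncertain. Hoxa2, a homeobox transcription factor, rested on few reads outside DP 5, at 0.416, 0.651, 2.28 and 56.7 CPM. Another 8 of the 34 had neither DP 1 nor DP 2 above the GFP range, namely Hspb8, Ccr3, 9830107B12Rik, Igfbp3, Cd24a, Ear6, Fhl1 and Tmem154. Of these, Cd24a, a surface glycoprotein, stood at 7.90, 8.62, 212 and 1099 CPM against 11.1 to 22.1 CPM (median 17.2), with DP 1 and DP 2 below and DP 4 and DP 5 above every GFP library. The remaining genes, with 3 DP libraries above the GFP range, were Dcn, Apod, Il4, Fam101b, Sfrp1, Myl9, Kdelr3, Gfi1b and Fxyd1. The highest library was DP 5 in 27 of the 34 and DP 4 in 7.

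**Figure D3:**
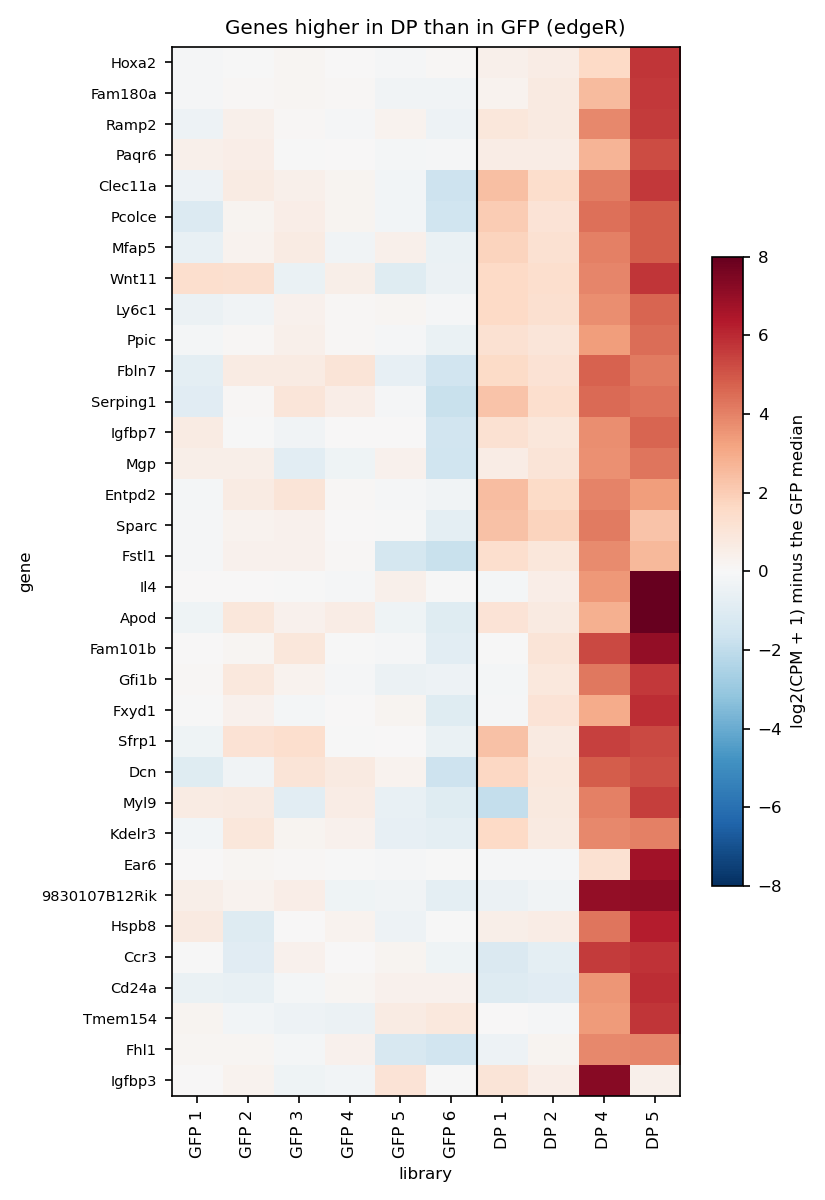
Each row is 1 of the 34 genes higher in DP and each column 1 library, coloured by log2(CPM + 1) minus the median of the GFP libraries (red higher, blue lower, colours ending at 8 units). Rows run from genes with all 4 DP libraries above the GFP range to Igfbp3, with 1. The DP 4 and DP 5 columns are a deeper red than the DP 1 and DP 2 columns in nearly every row, and DP 1 and DP 2 are pale red in the upper rows.

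These calls were lost in several other fits. With the replicate number of the labels as a block, 0 of the 34 passed (smallest adjusted p = 0.929 in edgeR), while their log2 fold changes stayed positive, from 2.40 to 6.37. The count was also 0 without DP 4, without DP 5, without both of them, without any 1 of the GFP libraries, and in a fit of the 10 DP and GFP libraries alone. At an unadjusted p under 0.05 the block left 446 higher and 46 lower genes, and DESeq2 over all libraries called 359 higher. Without DP 4 and DP 5, 28 of the 34 were still higher in DP than in GFP, with log2 fold changes of 1.86 for Pcolce, 1.68 for Mfap5, 2.09 for Sparc, 1.18 for Dcn and -1.24 for Ccr3.

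Libraries numbered 1 and 2 and those numbered 3 to 6 hold no library in common, so DP was also compared with GFP within each set, with the same edgeR test. Each fit also held the YFP single-positive (YFP) and double-negative (DN) libraries of its numbers. For numbers 1 and 2 these were YFP 1 and DN 1, each alone in its subset. The spread in that set therefore rests on DP 1, DP 2, GFP 1 and GFP 2 only, which limits its p-values. Numbers 1 and 2, which set DP 1 and DP 2 against GFP 1 and GFP 2, gave 81 higher genes (0.441%) and 163 lower ones (0.888%). Numbers 3 to 6, which set DP 4 and DP 5 against GFP 3 to GFP 6, gave 168 higher (1.19%) and 20 lower (0.142%). Of the 14069 genes tested in both sets and over all libraries, 43.3% had the same sign in each, and the log2 fold changes correlated at -0.147 across genes, which share libraries and are not independent.

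Past the test in both sets and higher in both were 16 genes, against 0 lower in both. The 16, taken after their values were seen, were Clec11a, Col1a2, Dcn, Entpd2, F3, Gpx3, Lum, Ly6c1, Mfap5, Pcolce, Ppic, Prss23, Serpinf1, Serping1, Serpinh1 and Sparc. Col1a2, a chain of type I collagen, stood at 685, 209.6, 1599 and 321 CPM in DP 1, 2, 4 and 5 against 21.6 to 146 CPM (median 77.2) in GFP, and the libraries numbered 1 and 2 gave a log2 fold change of 2.62 and those numbered 3 to 6 of 3.86 (adjusted p = 0.0195 and 0.0340). Serpinh1, the collagen chaperone of the endoplasmic reticulum, stood at 152, 83.2, 673 and 56.7 CPM against 8.38 to 46.4 CPM (median 35.5), with 1.63 and 3.96 (adjusted p = 0.0106 and 0.0462). Both had all DP libraries above GFP, yet over all 18 libraries neither passed (edgeR adjusted p = 0.0549 and 0.0704). F3, tissue factor that starts coagulation, stood at 52.2, 23.7, 242 and 356 CPM against 6.04 to 48.6 CPM (median 19.8). Gpx3, a secreted glutathione peroxidase, stood at 62.6, 64.4, 679 and 121 CPM against 14.8 to 73.9 CPM (median 36.2). In these 2 genes DP 2 (F3) or DP 1 and DP 2 (Gpx3) lay within the GFP range. Serpinf1, a secreted inhibitor of vessel growth, stood at 101, 52.5, 464 and 519.7 CPM against 16.3 to 54.1 CPM (median 34.3), also with DP 2 inside the GFP range.

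Another 10 genes passed in both sets with opposite signs, all lower within numbers 1 and 2 and higher within numbers 3 to 6. Serpinb2, an inhibitor of plasminogen activators, stood at 0.333, 0.407, 1444 and 11142 CPM in DP 1, 2, 4 and 5 against 3.0 to 85.3 CPM (median 6.78) in GFP. It changed by -3.66 on the log2 scale within numbers 1 and 2 and by 7.58 within numbers 3 to 6 (adjusted p = 3.05e-05 and 0.0179). Pglyrp1, an antibacterial granule protein, stood at 2.0, 2.36, 94.2 and 1428 CPM against 9.95 to 36.6 CPM (median 16.6). Klrg1, a receptor of activated lymphocytes, stood at 0.250, 1.46, 21.4 and 80.9 CPM against 0 to 5.31 CPM (median 0.620). In Serpinb2 and Pglyrp1 the GFP range lay between the 2 pairs of DP libraries.

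**Figure D4:**
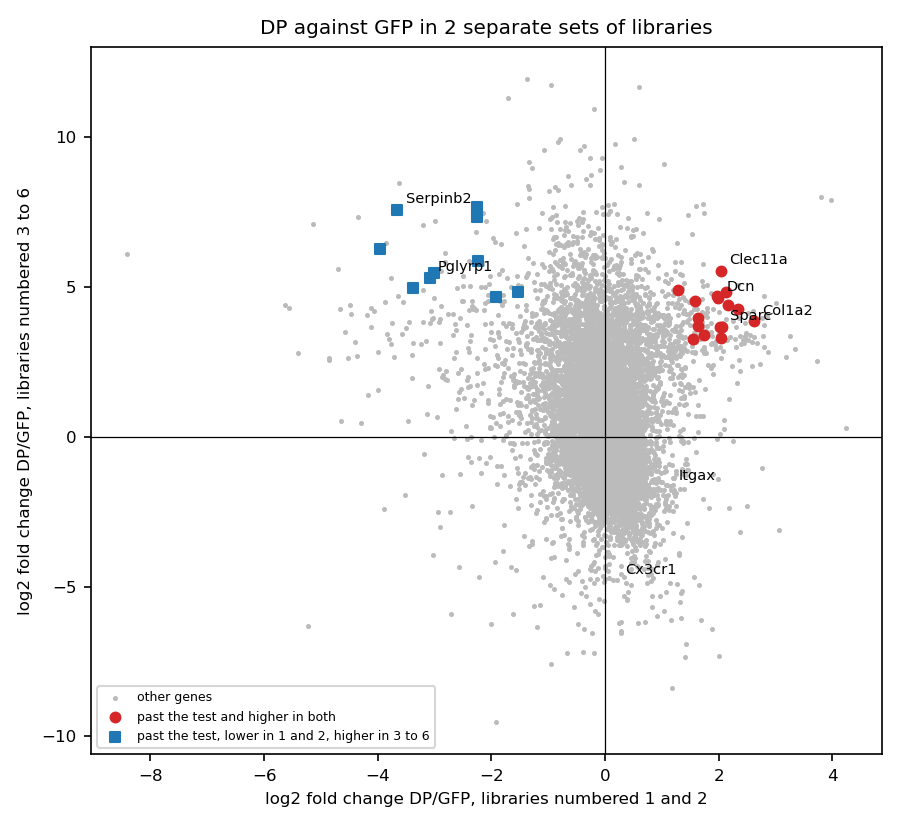
Each point is 1 gene, with its log2 fold change of DP over GFP among libraries numbered 1 and 2 (x axis) and among those numbered 3 to 6 (y axis). Red points are the 16 genes past the test and higher in both sets, blue squares the 10 lower in the first and higher in the second. Serpinb2 and Pglyrp1 lie at the upper left, Dcn, Col1a2 and Clec11a at the upper right.

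The list of collagen chains and collagen processing had 24 of 25 tested members higher in DP, 1 of them past the test (Pcolce), with a median log2 fold change of 2.36, where the median over all tested genes was 0.20 (0.01 within numbers 1 and 2, 0.21 within numbers 3 to 6). The list's mean log2(CPM + 1) was 5.70, 4.86, 6.95 and 3.37 in DP 1, 2, 4 and 5 and 2.83 to 4.23 in GFP. DP 5 lay within the GFP range for this list and the other 3 above it. Within numbers 1 and 2, 10 members passed as higher (median 1.39), and within numbers 3 to 6, 4 did (median 3.27). Pcolce2, a relative of Pcolce, stood at 1.08, 1.22, 34.4 and 57.0 CPM against 0.435 to 2.73 CPM (median 1.10), so that only the libraries labelled DP 4 and DP 5 exceeded GFP.

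Small proteoglycans and microfibrils showed 17 of 17 members higher (median 2.66, 2 past the test), and here all 4 DP libraries, at 4.70, 4.31, 6.91 and 5.53, lay above the GFP range of 2.70 to 3.96. Lum, the proteoglycan lumican, stood at 193, 101, 1123 and 496 CPM against 25.1 to 138 CPM (median 51.5) (log2 fold change 2.78 ± 0.65 (SE), edgeR adjusted p = 0.0650), and only DP 2 overlapped with GFP. Mfap2, a microfibril component, stood at 5.41, 3.99, 26.7 and 92.8 CPM against 0.502 to 3.55 CPM (median 1.09) (adjusted p = 0.0548). Of the fibroblast markers 14 of 14 were higher (median 3.08, 2 past the test), 9 passed within numbers 1 and 2 (median 1.98) and 6 within numbers 3 to 6 (median 3.72). Their summed level ran from 2198 to 18662 CPM in DP and from 1069 to 2128 CPM in GFP, and no member was at 0 in DP. Dpt, dermatopontin of connective tissue, had the widest gap in log2(CPM + 1) among genes with every DP library above GFP and a mean of 20 CPM or more in DP, at 23.5, 20.6, 69.8 and 49.7 CPM against 0.151 to 6.96 CPM (median 4.98). The fibroblast level was 6.94, 5.93, 8.76 and 6.86 in DP 1, 2, 4 and 5 against 3.82 to 5.54 in GFP, and its part in the matrix results was not tested. Without DP 4 and DP 5 the medians of the collagen, proteoglycan and fibroblast lists were 1.76, 1.08 and 1.43.

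Secreted regulators of Wnt and of insulin-like growth factors followed, with 19 of 20 and 9 of 10 tested members higher in DP and medians of 1.92 and 1.49. Wnt11 and Sfrp1 passed the test in the former list, Igfbp7 and Igfbp3 in the latter. Sfrp1, a secreted Wnt antagonist, stood at 8.48, 2.03, 80.1 and 71.6 CPM in DP 1, 2, 4 and 5 against 0.301 to 3.66 CPM (median 0.862) in GFP (log2 fold change 4.72 ± 0.97 (SE), adjusted p = 0.0437). Its relative Sfrp4 stood at 344, 112, 1332 and 296 CPM against 11.8 to 119 CPM (median 36.9) (adjusted p = 0.0734), and Sfrp2 at 56.1, 7.97, 264 and 41.9 CPM against 1.15 to 20.5 CPM (median 7.63) (adjusted p = 0.106). DP 2 lay within the GFP range for all 3 and DP 4 was the highest library. Igfbp6, which binds insulin-like growth factor 2, stood at 15.2, 7.89, 42.2 and 168 CPM against 4.08 to 9.15 CPM (median 6.03) (adjusted p = 0.0548), and its relative Igfbp4 at 269, 181, 741 and 648 CPM against 99.1 to 222 CPM (median 173) (adjusted p = 0.291).

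All 4 DP libraries lay above all 6 GFP libraries in 94 genes (0.548%) and below them in 132 (0.77%). DP 1 and DP 2 together lay above in 670 (3.91%) and below in 844 (4.92%), and DP 4 and DP 5 together above in 929 (5.42%) and below in 1763 (10.3%). So few libraries separate in some genes by their order alone. These shares were not set against that, and a lack of overlap is no test of a gene. Among genes with all 4 DP libraries above and a mean of 20 CPM or more, the widest gaps after Dpt and Sparc were of Cxcl12 and Prss23. Cxcl12, the stromal chemokine that retains leukocytes through Cxcr4, stood at 323, 150.3, 1109.5 and 429.7 CPM against 16.3 to 72.1 CPM (median 41.6) (log2 fold change 3.49 ± 0.80 (SE), edgeR adjusted p = 0.0615). It passed within numbers 1 and 2 (2.85, adjusted p = 9.19e-06) and missed the threshold within numbers 3 to 6 (4.03, adjusted p = 0.0609). Prss23, a secreted serine protease, stood at 18.1, 18.1, 73.9 and 284 CPM against 0.853 to 8.94 CPM (median 7.50). DP 4 and DP 5 again held the most Prss23, and DP 1 and DP 2 were alike. Htra3, another serine protease, stood at 67.2, 41.5, 341 and 62.7 CPM against 14.7 to 24.7 CPM (median 21.4). The stromal chemokine Ccl19, a ligand of Ccr7, stood at 44.5, 37.6, 278 and 15.7 CPM against 3.36 to 17.8 CPM (median 12.3), with DP 5 alone inside the GFP range.

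Among genes with all 4 DP libraries below the GFP range, Cd300e, an activating receptor of nonclassical monocytes (chromosome 11, 115051917 to 115062177), had the widest such gap at a mean of 20 CPM or more in GFP, at 4.74, 5.29, 0.457 and 0.107 CPM against 18.5 to 32.0 CPM (median 22.2), a log2 fold change of -3.15 ± 1.09 (SE) (edgeR adjusted p = 0.341). Within numbers 1 and 2 it fell by 2.01 on the log2 scale (adjusted p = 0.000892). Csf3, the granulocyte colony-stimulating factor, stood at 1.58, 1.55, 0.0415 and 0 CPM against 3.21 to 39.9 CPM (median 15.8) (adjusted p = 0.0862), the smallest p among genes lower in DP, and it fell within numbers 3 to 6 (adjusted p = 0.0241). Arg1, the arginase of alternatively activated macrophages, stood at 2.25, 5.53, 1.70 and 0.107 CPM against 7.58 to 41.8 CPM (median 12.2) (adjusted p = 0.255). None of these 3 passed over all libraries, although their DP and GFP values did not overlap. Cd177, a surface protein best known from neutrophils, stood at 2.83, 2.20, 11.5 and 0.747 CPM against 17.3 to 56.5 CPM (median 36.1). Treml4, a receptor of patrolling monocytes, stood at 4.74, 4.56, 26.0 and 9.92 CPM against 29.8 to 58.0 CPM (median 43.0). Both passed within numbers 1 and 2, with log2 fold changes of -3.88 and -2.87 (adjusted p = 1.62e-09 and 4.1e-07).

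Further genes of this kind were F10, coagulation factor X, at 22.5, 17.2, 73.6 and 49.2 CPM against 90.2 to 124 CPM (median 119), which fell within numbers 1 and 2 (log2 fold change -2.36, adjusted p = 2.82e-05). Ccl12, a monocyte-attracting chemokine, stood at 59.6, 90.9, 6.90 and 102 CPM against 104 to 425 CPM (median 226). Mefv, the inflammasome sensor pyrin, stood at 52.7, 40.4, 29.2 and 21.3 CPM against 62.1 to 136 CPM (median 99.3). All DP libraries were below GFP for both, Ccl12 in DP 5 by little. Aoah, an enzyme that inactivates lipopolysaccharide, stood at 32.9, 37.0, 23.8 and 0.533 CPM against 53.8 to 126 CPM (median 79.1). Eno3, an enolase, stood at 8.82, 10.9, 8.22 and 0 CPM against 13.9 to 32.3 CPM (median 24.2). Paox, a polyamine oxidase, stood at 16.1, 18.3, 13.2 and 0.747 CPM against 23.0 to 45.2 CPM (median 30.5). In each of these the library labelled DP 5 or DP 4 was the lowest except in F10, where DP 2 was. P2ry13 and Il10 were among the 10 lower genes with the smallest p but overlapped with GFP. P2ry13, an ADP receptor, stood at 10.2, 9.44, 21.3 and 0.747 CPM against 20.2 to 70.3 CPM (median 33.2). Il10, the anti-inflammatory cytokine, stood at 67.3, 74.8, 13.4 and 0.960 CPM against 61.9 to 329 CPM (median 159).

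Interferon-stimulated genes were lower in DP in 21 of 27 tested members, with 0 past the test and a median log2 fold change of -0.44. The list's level was 5.58, 5.25, 4.76 and 4.89 in DP 1, 2, 4 and 5 and 5.54 to 6.39 in GFP, so that DP 1 lay at the lower end of the GFP range and the others below it. Irf7, the transcription factor that amplifies interferon production, stood at 102, 89.4, 56.0 and 96.0 CPM against 139.5 to 204 CPM (median 158). Oas1g, an enzyme that senses viral RNA and lies in a cluster of close copies that makes its counts uncertain, stood at 11.9, 10.7, 9.76 and 4.48 CPM against 22.3 to 33.8 CPM (median 23.8). Trim30a, another interferon-induced gene, stood at 41.3, 41.5, 26.2 and 8.53 CPM against 53.3 to 93.9 CPM (median 63.1). In all 3 no DP library reached the lowest GFP library, but none passed edgeR's test (adjusted p = 0.609, 0.663 and 0.577). Oas1g and Trim30a were named for this gap and are not members of the list. Irf9, a subunit of the interferon-activated complex ISGF3, stood at 66.5, 70.0, 69.2 and 14.2 CPM against 84.2 to 141 CPM (median 113). Usp18, which damps the interferon receptor, stood at 22.7, 21.3, 26.8 and 0.427 CPM against 25 to 49.7 CPM (median 40.1), with DP 4 alone inside the GFP range of Usp18. Xaf1, an interferon-induced gene of cell death, went the other way in DP 5, at 14.1, 17.9, 14.1 and 272 CPM against 24.5 to 59.3 CPM (median 29.8). It was not alone, as 8 of 27 members lay above and 13 below all GFP libraries in DP 5. Of all tested genes 25.9% and 36.8% did so there. Summed over the list, DP 1, 2, 4 and 5 held 2212, 1453, 1049 and 2820.5 CPM against 1717 to 3820 CPM in GFP. By that measure only DP 2 and DP 4 lay below GFP.

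The promoter of Oas1g is shown because the gene had no overlap between DP and GFP and its start follows the letters of the element that ISGF3 is known to bind. The 48 bases before its start (RefSeq, GRCm38.p6, minus strand, chr5:120887614-120887661) read as follows, with the letters GAAANNGAAA, searched on both strands, in capitals.
Oas1g: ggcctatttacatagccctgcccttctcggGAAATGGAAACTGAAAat
The capitals cover 2 overlapping matches, beginning 18 and 12 bases before the start. In the 250 bases before the start, 9 of 20 interferon list members with a promoter in the table held such a match (45.0%), against 3.46% of 27025 genes. Oas1g is not a member of that list and is not among the 9. Irf7 and Irf9 held none in this window.

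Smooth muscle genes were higher in DP in 15 of 15 tested members (median 2.01), 1 of them past the test (Myl9), but their level was not raised in DP 1. The list's level was 3.45, 4.50, 6.76 and 5.5 in DP 1, 2, 4 and 5 against 3.14 to 4.49 in GFP, with DP 1 inside the GFP range. Libraries numbered 1 and 2 gave a median of -0.36 and those numbered 3 to 6 of 3.32, with 0 and 4 members past the test as higher. Myl9, the regulatory light chain of myosin, stood at 7.82, 55.2, 539 and 1548 CPM against 15.8 to 53.7 CPM (median 34.6) (log2 fold change 3.95 ± 0.83 (SE), edgeR adjusted p = 0.0457). Acta2, smooth muscle actin, stood at 38.1, 156, 1104 and 1823 CPM against 30.3 to 161 CPM (median 77.8). Both were highest in DP 5. Tpm2, a tropomyosin, stood at 3.83, 21.1, 176 and 356 CPM against 6.57 to 20.1 CPM (median 10.7). Tagln, transgelin of contractile cells, stood at 11.5, 47.3, 332 and 744 CPM against 8.78 to 55.6 CPM (median 25.1). In these 4 genes DP 4 and DP 5 were far above GFP and DP 1 was not above it.

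The letters of a CArG box, the motif of serum response factor, were searched strictly, as CC, a core of A and T only, and GG. Of 11 smooth muscle list members with a promoter in the table, only Myl9 held them in the 250 bases before the start. This was 9.09%, against 1.62% of 27025 genes. The 70 bases around the Myl9 box (RefSeq, GRCm38.p6, plus strand, chr2:156775273-156775342) are shown with the box in capitals, which begins 161 bases before the start and reads as a match on both strands.
Myl9: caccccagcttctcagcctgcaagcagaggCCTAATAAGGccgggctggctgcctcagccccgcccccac
Acta2 held no strict match in this window. Boxes with a G or C in the core were not searched, so this does not show that Acta2 lacks a CArG box.

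Endothelial markers were higher in 13 of 13 members (median 1.28, Ramp2 past the test), with a level of 1.88, 2.67, 4.22 and 1.64 in DP 1, 2, 4 and 5 against 1.4 to 2.39 in GFP. DP 2 and DP 4 lay above the GFP range, and Kdr and Emcn were at 0 in DP 5. Esam, an endothelial adhesion molecule, stood at 0.416, 3.42, 33.3 and 88.3 CPM against 0.578 to 3.16 CPM (median 1.32).

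Granulocyte genes differed widely between the DP libraries. The eosinophil list was higher in 7 of 7 tested members, 2 past the test, with a level of 0.68, 1.01, 3.23 and 8.34 in DP 1, 2, 4 and 5 and 0.66 to 1.20 in GFP. Ccr3, the eotaxin receptor, stood at 1.5, 2.20, 268 and 309 CPM against 2.05 to 5.97 CPM (median 4.60), a log2 fold change of 5.06 ± 1.01 (SE) (edgeR adjusted p = 0.0404), so that DP 1 was below all GFP libraries and DP 2 near the lowest. Prg2, the major basic protein of eosinophil granules, stood at 0.166, 0.814, 33.8 and 3374 CPM against 0.0532 to 1.35 CPM (median 0.316) (adjusted p = 0.0643). Ear6 and Ear1, eosinophil ribonucleases of a family with near-identical copies, stood at 0, 0, 1.54 and 114 CPM and at 0, 0.0814, 3.32 and 1289.5 CPM. In DP these ribonucleases were read almost only in DP 5. Without DP 4 and DP 5 the medians of the eosinophil, neutrophil and mast cell lists were -0.55, -2.38 and -3.19.

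Neutrophil genes were higher in 12 of 13 cases, 0 of them past the test, with a level of 2.08, 2.25, 5.98 and 8.36 in DP 1, 2, 4 and 5 against 1.93 to 4.48 in GFP. Within numbers 3 to 6, 5 members passed as higher, and within numbers 1 and 2 the median was -1.39 with 1 past the test as lower. Retnlg, a secreted resistin-like protein of neutrophils, stood at 1.41, 1.06, 1315 and 21407 CPM against 0.683 to 27.4 CPM (median 1.58). Lcn2, an iron-withholding granule protein, stood at 6.07, 4.88, 69.5 and 1475 CPM against 1.10 to 21.5 CPM (median 6.71). These were highest in DP 5. Mpo and Elane, granule enzymes made by immature myeloid cells, were instead highest in DP 4, at 0.749, 2.52, 425 and 1.39 CPM and 0.166, 1.55, 156 and 0.427 CPM.

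Mast cell and basophil markers were higher in 9 of 9 cases with 0 past the test, but lower in 7 of 9 within numbers 1 and 2, with 1 past it. Their level was 1.16, 1.24, 2.14 and 7.38 in DP 1, 2, 4 and 5 against 1.4 to 3.65 in GFP. Cma1, a mast cell chymase, stood at 0.333, 0.895, 1.45 and 3536 CPM against 2.85 to 57.6 CPM (median 5.88). Fcer1a, the IgE receptor chain, stood at 0, 0.244, 0.208 and 273 CPM against 0.0982 to 3.51 CPM (median 0.703). Mcpt4, another mast cell protease, stood at 0, 0, 0.415 and 1315 CPM against 0.0491 to 19.9 CPM (median 4.00). DP 5 alone exceeded the GFP range in these 3. Hdc, which makes histamine, stood at 8.82, 6.51, 779 and 229 CPM against 20.5 to 58.2 CPM (median 28.2). Of these 4 genes only Hdc was above GFP in DP 4 too, and DP 1 and DP 2 were below all GFP libraries for it. Summed eosinophil markers ran from 5.57 to 5489 CPM in DP and from 6.52 to 12.9 CPM in GFP. Summed neutrophil markers ran from 142 to 39480.0 CPM in DP and from 207 to 493 CPM in GFP. Summed mast cell markers ran from 31.2 to 10434 CPM in DP and from 44.3 to 223 CPM in GFP. Their part in the DP 4 and DP 5 values of other genes was not tested.

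Classical monocyte genes were low in DP 1 and DP 2. The list's level was 5.09, 4.98, 6.90 and 8.78 in DP 1, 2, 4 and 5 against 6.67 to 7.55 in GFP. Of 12 members 7 passed as lower within numbers 1 and 2 (median -2.0), whereas within numbers 3 to 6 the median was 1.39 with 1 member past the test as higher. Plac8, a small protein of inflammatory monocytes and neutrophils, stood at 7.90, 9.44, 157 and 1850.3 CPM against 51.7 to 99.6 CPM (median 71.4), and its log2 fold change within numbers 1 and 2 was -2.62 (adjusted p = 2.24e-06). Hp, haptoglobin that binds free hemoglobin, stood at 12.2, 6.59, 91.3 and 617 CPM against 50.6 to 122 CPM (median 80.2), with -2.82 within numbers 1 and 2 (adjusted p = 1.64e-05). Mgst1, a microsomal glutathione transferase, stood at 8.82, 12.7, 93.1 and 953 CPM against 13.2 to 71.8 CPM (median 37.0). Plac8 and Hp were below all GFP libraries in DP 1 and DP 2, and above all of them in DP 5.

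Nonclassical monocyte genes were lower in 11 of 13 members (median -0.33), and all 4 DP libraries, at 5.02, 5.19, 5.16 and 4.83, lay below the GFP range of 5.51 to 6.04. Within numbers 1 and 2, 4 members passed as lower (median -0.24) and within numbers 3 to 6, 0 did (median -0.31). Fabp4, a fatty acid carrier, stood apart from the list, at 3.41, 20.3, 73.7 and 206 CPM against 5.65 to 38.7 CPM (median 7.11). Fabp4 was above all GFP libraries in DP 4 and DP 5.

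Resident vascular macrophage genes were low in DP 1 and DP 2 and high in DP 5, at 5.44, 5.75, 7.46 and 9.67 in DP 1, 2, 4 and 5 against 6.50 to 8.18 in GFP. Of 15 members 0 were higher within numbers 1 and 2 and 5 passed as lower (median -1.07). Folr2, a folate receptor of resident macrophages, stood at 72.5, 92.1, 236 and 3526 CPM against 104 to 432 CPM (median 184). Ccl8, a chemokine, stood at 19.0, 39.0, 65.9 and 3198 CPM against 38.9 to 194 CPM (median 106). DP 4 lay within the GFP range for both. Pf4, a platelet and macrophage chemokine, stood at 24.8, 51.6, 132 and 4079 CPM against 72.6 to 534 CPM (median 195). Ltc4s, the leukotriene C4 synthase, stood at 3.16, 5.69, 21.7 and 587 CPM against 8.25 to 44.4 CPM (median 19.2). In Folr2, Ccl8, Pf4 and Ltc4s alike DP 5 was the highest of the 10 libraries and DP 1 the lowest.

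Genes of alternative activation were mixed, with 8 of 15 members higher and 0 past the test. Beside Arg1, Retnla, a secreted resistin-like protein, stood at 7.32, 10.6, 229 and 8716 CPM against 3.93 to 191 CPM (median 20.6). Ccl24, an eotaxin, stood at 1.08, 2.36, 38.0 and 642 CPM against 4.37 to 50.3 CPM (median 14.4). Mrc1, the mannose receptor, stood at 189, 179, 228 and 315 CPM against 297 to 948 CPM (median 385). Retnla and Ccl24 were high in DP 5, Ccl24 was below all GFP libraries in DP 1 and DP 2, and Mrc1 was below them in DP 1, DP 2 and DP 4. Ccl6, another chemokine of myeloid cells, stood at 147, 307, 2926 and 34656 CPM against 231 to 1402 CPM (median 701).

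Foamy macrophage, lysosome and MHC class II lists gave other counts within numbers 1 and 2 than over all libraries, and the difference was not tested. Of 17 foamy macrophage genes 5 were higher over all libraries, but 14 were within numbers 1 and 2, 3 of them past the test (medians -0.15 and 0.66). The foamy list stood at 8.86, 8.59, 8.0 and 8.96 in DP 1, 2, 4 and 5 against 8.0 to 9.55 in GFP, so that DP 1, DP 2 and DP 5 lay within the GFP range, and GFP 1 and GFP 2 were the lowest GFP libraries at 8.23 and 8.0. With the size factors of DESeq2 the foamy median over all libraries changed sign, to 0.13. The median of all tested genes moved too, from 0.20 to 0.38, and the foamy median stayed under it. Lysosome genes were lower in 22 of 24 over all libraries and higher in 23 of 24 within numbers 1 and 2 (medians -0.51 and 0.30, and -1.05 within numbers 3 to 6). Their level was 8.94, 8.71, 8.25 and 7.93 against 8.41 to 9.61, with DP 1 and DP 2 inside the GFP range and DP 4 and DP 5 below it, and with 8.62 and 8.41 in GFP 1 and GFP 2. Of 11 MHC class II genes 3 were higher over all libraries and 11 within numbers 1 and 2 (median 0.40), 0 past the test, and the list stood at 8.39, 8.76, 6.16 and 7.38 in DP 1, 2, 4 and 5 against 7.71 to 8.39 in GFP. Cd74, the invariant chain of MHC class II, stood at 11982, 16266, 1414 and 11716 CPM against 9856 to 22064 CPM (median 12270.0).

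Of 4 dendritic cell lists, cDC1 and mature dendritic cells had a higher level in DP 1 and DP 2 than in any GFP library, and cDC2 and plasmacytoid dendritic cells did not. This held for mean log2(CPM + 1) and not for summed CPM. Summed cDC1 genes stood at 1169 and 987 CPM in DP 1 and DP 2, within the GFP range of 813 to 1296.5 CPM. Summed mature dendritic cell genes stood at 7389 and 6248 CPM, within the GFP range of 5102 to 12503 CPM. The cDC1 list, of cross-presenting dendritic cells, stood at 4.87, 4.92, 3.65 and 3.94 in DP 1, 2, 4 and 5 against 4.04 to 4.61 in GFP, with 11 of 12 members higher within numbers 1 and 2 (median 0.37, 1 past the test). Cd24a was the member past the test over all libraries, but it went against the list in DP 1 and DP 2. It lay below all GFP libraries there, was lower within numbers 1 and 2, and rose only in DP 4 and DP 5. The list of mature dendritic cells stood at 5.90, 5.96, 4.90 and 2.52 against 3.79 to 5.85. Within numbers 1 and 2, 9 of its 11 members were higher, with 0 past the test as higher and 1 as lower. The cDC2 list stood at 5.76, 5.98, 4.98 and 6.29 against 5.12 to 6.10, and the plasmacytoid list at 2.80, 3.07, 2.56 and 2.99 against 2.39 to 3.34, with DP 1 and DP 2 inside the GFP range in both. Irf8, a transcription factor of monocytes and dendritic cells, stood at 305, 257, 87.2 and 31.4 CPM against 214 to 341 CPM (median 299). Cd83, a surface protein of activated antigen-presenting cells, stood at 6264, 5349, 983 and 621 CPM against 4439 to 11562 CPM (median 8515). Both were below all GFP libraries in DP 4 and DP 5 and not in DP 1 and DP 2. Cd83 fell within numbers 3 to 6 (log2 fold change -3.51, adjusted p = 0.00423), as did Cx3cr1 (-4.78, adjusted p = 0.0479).

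T cell and NK cell genes were lower in DP 1 and DP 2 than in the GFP libraries of the same numbers. In that set 10 of 14 T cell genes and 9 of 12 NK and ILC genes passed as lower (medians -3.04 and -2.61), where 0.888% of all genes tested there did. GFP libraries differed widely among themselves here, with T cell levels of 1.30 to 4.87. GFP 1 and GFP 2 were the highest of them, at 4.87 and 4.04 for T cell and 3.87 and 3.28 for NK and ILC genes. GFP 3 to GFP 6 stood at 1.30 to 2.52 and at 0.70 to 1.69. DP 1, 2, 4 and 5 stood at 2.15, 2.19, 5.26 and 1.43 for T cell genes. They stood at 1.31, 1.55, 2.46 and 1.86 for NK and ILC genes. DP 1 and DP 2 thus lay within the GFP range of both lists. Gzma, the cytotoxic granule protease granzyme A, stood at 0.0832, 0.163, 0.0415 and 0 CPM against 0 to 28.1 CPM (median 0.522). Prf1, perforin, stood at 0.499, 0.569, 0 and 0 CPM against 0 to 31.4 CPM (median 1.22). Their log2 fold changes within numbers 1 and 2 were -7.31 and -5.22 (adjusted p = 3.25e-11 and 0.000855). Cd28, a T cell costimulator, stood at 1.16, 0.976, 38.9 and 33.3 CPM against 2.86 to 21.7 CPM (median 4.44). Cd247, a chain of the T cell receptor complex, stood at 1.58, 1.55, 26.9 and 77.2 CPM against 0.201 to 16.8 CPM (median 1.71). DP 4 held the highest T cell level of the 10 libraries, and Cd3e, Cd3g and Cd8b1 were at 0 in DP 5.

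**Figure D5:**
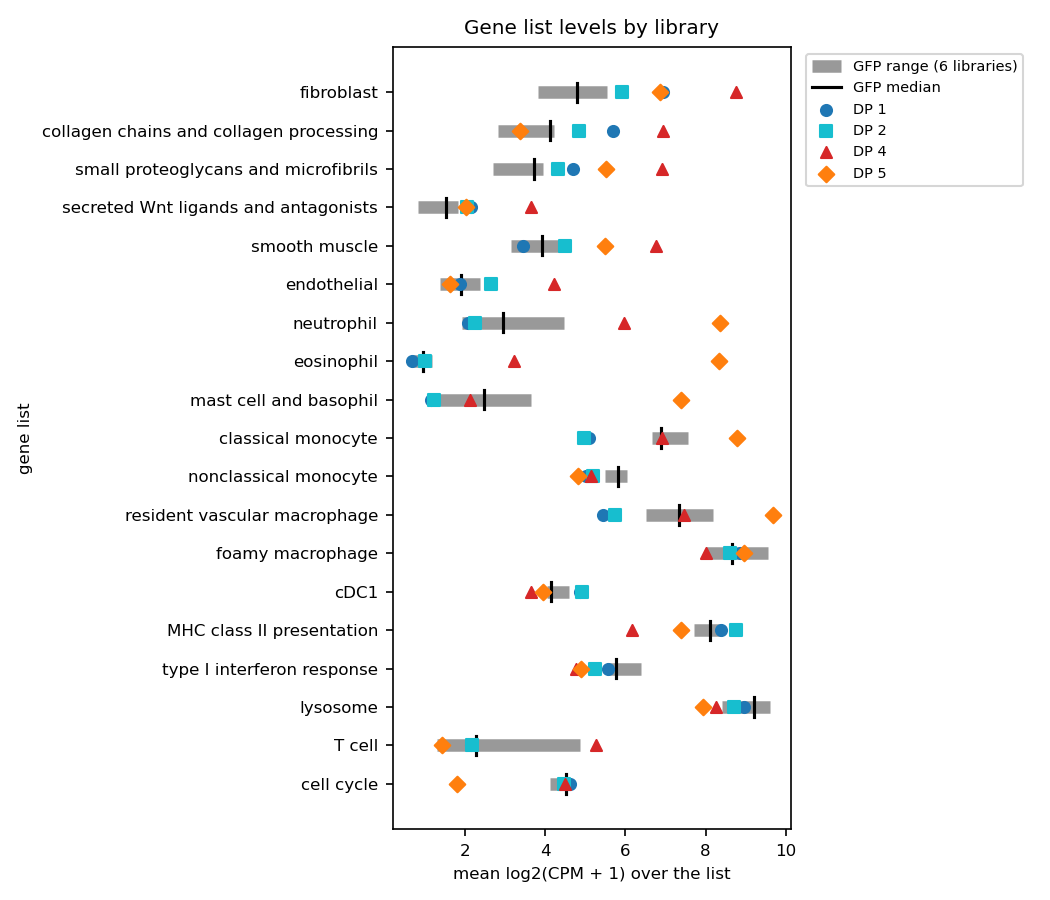
Each row is 1 gene list and the x axis its mean log2(CPM + 1). The grey bar is the range of the 6 GFP libraries, the black tick their median, and coloured symbols are the 4 DP libraries. The fibroblast and proteoglycan lists have all 4 DP libraries to the right of the GFP range, the nonclassical monocyte list has all 4 to its left, and for the neutrophil, eosinophil and classical monocyte lists DP 5 lies far to the right of DP 1 and DP 2.

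The DP libraries fell on opposite sides of GFP in a further set of genes. In 88 genes (0.513% of those tested) DP 1 and DP 2 were above and DP 4 and DP 5 below all GFP libraries, and in 94 genes (0.548%) the reverse held. Beside Itgax, the former included Ccl22, a chemokine of dendritic cells, at 96.7, 115, 3.32 and 4.16 CPM in DP 1, 2, 4 and 5 against 7.43 to 56.5 CPM (median 27.5) in GFP, and Rtn1, a reticulon, at 23.5, 24.0, 3.53 and 0.640 CPM against 13 to 15.9 CPM (median 14.5). Map3k9, a kinase, stood at 36.6, 30.7, 2.49 and 1.39 CPM against 7.38 to 20.1 CPM (median 11.7). Creg2, a secreted glycoprotein, stood at 21.9, 21.8, 0.208 and 0.853 CPM against 7.00 to 13.1 CPM (median 11.1). None of these 5 passed over all libraries or within either set of numbers. Beside Serpinb2, Pglyrp1 and Hdc, the latter included Ceacam1, an adhesion molecule, at 6.90, 7.32, 158 and 192 CPM against 27.4 to 52.4 CPM (median 38.6). Nfe2, a transcription factor of the erythroid and platelet lineages, stood at 0.499, 0.651, 25.4 and 74.2 CPM against 3.67 to 10.8 CPM (median 8.94). These 5 all fell within numbers 1 and 2, with log2 fold changes from -3.71 (Nfe2) to -1.39 (Hdc).

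The list of complement and Fc receptor genes stood at 8.52, 8.18, 8.55 and 9.33 in DP 1, 2, 4 and 5 against 8.02 to 8.81 in GFP, so that only DP 5 lay above the GFP range. In DP 1, 4 of 18 members lay above and 5 below all GFP libraries, where 13.3% and 15.0% of all tested genes did. In DP 4, 5 lay above and 10 below, where 20.3% and 17.2% of all tested genes did. The soluble components C3, C1s and C1ra were above all GFP libraries in DP 1 and DP 4. C3, the central complement component, stood at 1701, 411, 3175 and 217 CPM against 58.6 to 410.2 CPM (median 251). C1s, a protease of the classical pathway, stood at 63.1, 30.6, 270.0 and 1.71 CPM against 2.11 to 24.4 CPM (median 13.6). C1ra, its partner protease, stood at 41.1, 17.7, 163 and 74.1 CPM against 9.01 to 22.3 CPM (median 12.9). DP 5 was within or below the GFP range for C3 and C1s and above it for C1ra. Among matrix proteases and inhibitors 17 of 22 members were higher (median 1.42) and 0 passed over all libraries. Within numbers 1 and 2, 6 passed as higher and 1 as lower, and within numbers 3 to 6, 1 passed as higher and 2 as lower. DP 5 had 9 members above and 11 below all GFP libraries, where 25.9% and 36.8% of all tested genes lay above and below in DP 5. Mmp3, a stromelysin, stood at 528, 243, 1887 and 303 CPM against 14.9 to 263 CPM (median 87.0). Timp3, a matrix-bound protease inhibitor, stood at 33.8, 28.5, 494 and 249 CPM against 7.73 to 54.4 CPM (median 25.5).

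Cell cycle genes stood at 4.63, 4.47, 4.49 and 1.82 in DP 1, 2, 4 and 5 against 4.13 to 4.63 in GFP, so that DP 5 alone was low. The list of dissociation and heat shock genes, which rise when tissue is digested, stood at 9.50, 9.47, 9.77 and 9.99 against 9.59 to 9.92, and DP 1 and DP 2 were slightly under and DP 5 slightly over the GFP range. Respiratory chain genes stood at 5.92, 6.38, 6.55 and 8.93 against 6.15 to 7.55, with DP 5 above and DP 1 below all GFP libraries. No member of the lists of glycolysis, cholesterol synthesis, cholesterol efflux, scavenger receptors or beta-2 integrins passed the test over all libraries.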

How the data were processed

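The values are counts of sequencing reads per gene as deposited by the authors, 1 column a library, made per the submitters' processing notes with TopHat 1.4.1, SAMtools and HTSeq 0.7.1 on mm10. No source used here gives the annotation or the strand setting, so overlapping genes and close copies may share counts. All 18 libraries entered 1 fit with edgeR 4.0.16 (R 4.3.3): genes were filtered with filterByExpr, libraries scaled by TMM factors, and robust quasi-likelihood tests run on the contrast of DP minus GFP, with Benjamini-Hochberg adjustment over 17143 of 23337 genes at a threshold of 0.05. CPM values use the scaled library sizes, and list levels are means of log2(CPM + 1). The members of the comparison, the gene lists and the tests were chosen with earlier results of these data known. Of 745 list entries 729 matched a gene and 714 were tested. The text names every gene past the test, the 10 lower genes with the smallest p, the 10 genes in each direction with the widest gap among those without overlap, the 5 in each sense that set DP 1 and DP 2 against DP 4 and DP 5 (these at a mean of 20 CPM or more), and members of each list with the smallest p, apart from a few that are not reported here. A second group was named after its values were seen: the 16 genes past the test in both sets of numbers, Ptprc, Csf1r and Klrg1. Pairing by replicate number was checked on deviations from group means, where same-numbered GFP and DP libraries correlated at 0.226, 0.313, 0.164 and 0.416 for numbers 1, 2, 4 and 5. Some libraries of different numbers correlated as highly, such as GFP 3 with DP 4 (0.334) and GFP 1 with DP 2 (0.269). All same-numbered values were over 0.1, so the fit with the number as a block is given beside the calls. No pair of DP libraries or of GFP libraries had counts equal within sampling noise. Coordinates are from GENCODE vM21 and promoters from RefSeq. Alternatives were DESeq2 1.42.0 and its size factors, limma 3.58.1 voom with sample weights, no filter, fewer libraries, and each library left out in turn, and the tests were tried on simulated counts first.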

Additional observations from a re-analysis of the deposited data

Results flagged for a closer look

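Of 170 sets of 4 DP or 6 GFP values checked over the genes past the test and the list levels, 12 held a library that stood apart by Dixon's test, where chance marks about 1 set in 20. Il4 was at 0.599 CPM in GFP 5 and at 0.106 to 0.205 CPM in the other GFP libraries. Igfbp3 was at 198 CPM in DP 4 and at 0.747 to 1.66 CPM in the other DP libraries. Mean log2(CPM + 1) of a list set the remaining 10 apart. GFP 3 stood above the other GFP libraries in classical monocyte genes (7.55 against 6.67 to 7.00), type I interferon genes (6.39 against 5.54 to 5.81) and cholesterol synthesis genes (4.78 against 4.28 to 4.44). DP 4 stood above the other DP libraries in secreted Wnt ligands and antagonists (3.65 against 2.03 to 2.16). DP 5 stood above them in mast cell and basophil genes (7.38 against 1.16 to 2.14), chemokine ligands (7.54 against 6.57 to 6.71) and scavenger receptors (6.92 against 6.54 to 6.57). DP 5 stood below them in interferon gamma and MHC class I genes (5.39 against 6.25 to 6.39), cholesterol synthesis genes (3.29 against 4.43 to 4.45) and cell cycle genes (1.82 against 4.47 to 4.63).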

How the results depend on the processing

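Calls of genes higher in DP depended on the test and on the libraries in the fit. Against 34 over all libraries, the count was 92 with the size factors of DESeq2, 359 with DESeq2, 2901 with limma voom and sample weights, 62 without the filter on low counts, 0 with the 10 compared libraries alone, 0 with the replicate block and 0 with the number set as a term. It was 81 within numbers 1 and 2, 168 within numbers 3 to 6 and 0 without DP 4 and DP 5. The count of lower genes, 0 over all libraries, was 3 with DESeq2, 544 with voom, 163 within numbers 1 and 2 and 20 within numbers 3 to 6. Voom gave DP 1, DP 2, DP 4 and DP 5 weights of 2.75, 2.69, 0.443 and 0.0655. With 1 library left out the higher count ran from 0 to 251 and the lower count from 0 to 1. The higher count was 0 without any GFP library, DP 4 or DP 5, 189 without DP 1 and 167 without DP 2. Without YFP 1, 3, 4, 5 or 6 it was 179, 111, 106, 251 or 21, and without DN 3 or DN 6 it was 116 or 16.

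The 94 genes with every DP library above GFP became 670 without DP 4 and DP 5 and 99 to 339 with 1 library left out. They were 291 without GFP 2, 169, 189 and 339 without DP 1, DP 2 and DP 5, and 144 without DP 4. The 132 genes below became 79 with the size factors of DESeq2, 844 without DP 4 and DP 5, and 140 to 337 with 1 library left out. They were 241 without GFP 2, 337, 272, 333 and 262 without DP 1, DP 2, DP 4 and DP 5. Leaving out DP 4 and DP 5 for these overlap counts was added after the data had been seen. The median log2 fold change of all genes moved from 0.20 to 0.38 with the size factors of DESeq2. The cause of these changes was not tested, beyond the fewer libraries in the smaller fits.

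Of 3432 log2 fold changes of 123 followed genes under 28 other settings, 2498 kept their direction and side of the threshold, 467 lost the call, 306 gained one and 161 changed sign, and 71 genes never changed sign. Of 1344 list medians, 242 moved by more than the spread of the DP libraries. Among libraries numbered 1 and 2 the signs that changed gave log2 fold changes of Ccr3 -0.79, 9830107B12Rik -1.33, Myl9 -0.72, Cd24a -0.39, Fhl1 -0.19, Gfi1b -0.034, Tmem154 -0.020, Il10 0.14, Rtn1 0.73, Ceacam1 -2.25, Serpinb2 -3.66, Pglyrp1 -3.08, Nfe2 -3.71, Hdc -1.39, Cx3cr1 0.21, Pcolce2 -0.77, Tpm2 -0.17, Acta2 -0.43, Tagln -0.72, Ear1 -1.71, Mpo -0.082, Lcn2 -0.82, Fcer1a -0.72, Cma1 -2.82, Mcpt4 -8.41, Mgst1 -0.55, Plac8 -2.62, Hp -2.82, Ltc4s -1.44, Ccl8 -1.07, Folr2 -0.57, Pf4 -1.73, Xaf1 -0.58, Retnla -0.34, Ccl24 -2.56, Ccl6 -0.29, Cd247 -2.89, Cd28 -3.80, Irf8 0.26, Cd74 0.44, Cd83 0.32, Timp3 -0.20, Ptprc 0.033, Klrg1 -2.25. Without DP 4 and DP 5 they were Ccr3 -1.24, 9830107B12Rik -0.85, Myl9 -0.14, Cd24a -1.03, Tmem154 -0.27, Rtn1 0.71, Ceacam1 -2.46, Serpinb2 -5.95, Pglyrp1 -3.13, Nfe2 -3.76, Hdc -2.20, Pcolce2 -0.16, Ear1 -2.22, Lcn2 -0.77, Retnlg -2.67, Fcer1a -3.19, Cma1 -5.13, Mcpt4 -9.97, Mgst1 -1.80, Plac8 -3.10, Hp -3.16, Fabp4 -0.12, Ltc4s -2.24, Ccl8 -1.92, Folr2 -1.41, Pf4 -2.56, Xaf1 -1.15, Retnla -2.40, Ccl24 -3.39, Ccl6 -1.64, Cd247 -1.60, Cd28 -2.84, Cd74 0.034, Klrg1 -0.90. Under voom they were Ccr3 -0.50, Myl9 -0.033, Cd24a -0.54, Ear6 -0.74, Rtn1 0.45, Ceacam1 -2.04, Serpinb2 -3.85, Pglyrp1 -1.95, Nfe2 -2.80, Hdc -1.83, Ear1 -0.21, Retnlg -0.26, Fcer1a -2.33, Cma1 -3.36, Mcpt4 -5.82, Mgst1 -1.35, Plac8 -2.53, Hp -2.79, Ltc4s -1.64, Ccl8 -1.73, Folr2 -1.03, Pf4 -2.05, Xaf1 -0.96, Retnla -0.16, Ccl24 -2.21, Ccl6 -1.26, Cd28 -1.44, Gzma 0.27. Within numbers 3 to 6 they were Ccl22 -2.26, Itgax -1.65, Creg2 -4.19, Map3k9 -2.23. With the number set as a term they were Creg2 -0.42, Map3k9 -0.25. With the replicate block, which ended every call over all libraries, they were Creg2 -0.41, Map3k9 -0.26, Nfe2 -0.36, Cma1 -0.19, Mcpt4 -0.082, Hp -0.25, Pf4 -0.13.

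With 1 library left out, the log2 fold changes of genes that changed sign ran from -0.17 to 4.59 for Ccl24, from -1.16 to 3.93 for Ccl8, from -0.71 to 0.17 for Cd74, from -4.24 to 6.83 for Cma1, from -0.43 to 0.73 for Creg2, from -2.56 to 7.41 for Fcer1a, from -0.47 to 3.21 for Folr2, from -1.01 to 1.95 for Hp, from -0.21 to 1.02 for Itgax, from -0.80 to 4.00 for Ltc4s, from -0.14 to 1.05 for Map3k9, from -5.10 to 7.08 for Mcpt4, from -1.45 to 3.46 for Pf4, from -0.15 to 3.60 for Plac8, from -0.45 to 0.18 for Ptprc, from -0.65 to 0.46 for Rtn1, from -0.95 to 2.07 for Xaf1. The common dispersion between libraries was 0.890, and compared libraries held 9790946 counts or more. YFP 6, which was not compared but entered the fit and its estimate of the spread, held only 289166 counts.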

Other observations

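Genes of actin and motility, which bear on cell movement, stood at 8.41, 8.57, 8.14 and 9.38 (mean log2(CPM + 1)) in DP 1, 2, 4 and 5 and at 8.27 to 8.59 in GFP. Of the list's members, 17 of 22 were higher in DP over all libraries (median log2 fold change 0.40) and 0 passed the test, also within numbers 1 and 2 or 3 to 6. DP 5 was above the GFP range and DP 4 below it, and DP 1 and DP 2 were within it. B cell genes stood at 2.04, 2.01, 3.0 and 1.61 against 1.03 to 1.98 and were highest in DP 4. Ribosomal protein genes stood at 6.31, 7.04, 6.38 and 8.63 against 6.31 to 7.89, with DP 5 alone above the GFP range.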
